A study of Homo sapiens with 16 samples.

Results

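The unfolded protein response (UPR) keeps protein folding in the endoplasmic reticulum (ER) in step with the load of new proteins. In one arm the kinase and endonuclease IRE1, encoded by ERN1, cuts a short intron out of the XBP1 mRNA in the cytoplasm, which shifts its reading frame and gives the active transcription factor. In another arm ATF6 leaves the ER under stress, is cut in the Golgi and enters the nucleus as a transcription factor. Both factors raise genes for ER chaperones and for ER-associated degradation (ERAD), which carries misfolded proteins back to the cytosol, and promyelocytes make large amounts of secretory granule protein.

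Described here are 10 genes of these arms, chosen by name with earlier results of these data known. They are the sensors ERN1 and ATF6, the factor XBP1 and the folding genes HSPA5, DNAJB9, SDF2L1 and CRELD2. The others are the ERAD genes HERPUD1, SEL1L and EDEM1. All 10 have 1 row each among 18079 genes in the deposited count table, and 2 of the 10 are in the deposited splicing table. The cells were wild-type HL60, a human line from acute promyelocytic leukaemia, given DMSO as the solvent control or 50 nM SY-351, an inhibitor of the transcription-associated kinase CDK7, for 5 h. Polyadenylated RNA was sequenced in 4 numbered replicates per group, each with 2 technical repeats that share 1 count column, so there are 4 DMSO and 4 SY-351 libraries. The study asked how CDK7 acts on transcription, splicing and termination. The labels do not say whether the replicates were separate cultures, so p-values measure the spread between these libraries, which may be technical. The tests also share the estimate of spread between genes, so a p-value does not rest on 1 gene's own spread alone.

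Total counts were 103676557 to 124242039 in the DMSO libraries and 43266228 to 77891776 in the SY-351 libraries. The DMSO libraries fell into 2 pairs. Across genes, log2 CPM (library-size scaled counts, with size factors from the trimmed mean of M values, TMM) correlated at r = 0.983 between DMSO 1 and 2 and at 0.987 between DMSO 3 and 4, but only at 0.762 to 0.794 between the pairs. DMSO 3 and 4 correlated with the SY-351 libraries at 0.937 to 0.954, and DMSO 1 and 2 at 0.727 to 0.759. The labels name no batch, so the fold of each of the 10 genes is given with all 8 libraries and with each pair of controls alone. Of the promyelocyte markers, MPO was at 12116 to 48112 CPM, CTSG at 19.4 to 670 CPM and CD33 at 3.10 to 86.4 CPM. The markers ELANE, PRTN3 and AZU1 have no row. Summed T cell, erythroid and epithelial markers stayed at or below 9.09 CPM in every library. B cell markers summed to at most 17.6 CPM, mostly CD79A. The plasma cell markers summed to 44.6 to 182 CPM in DMSO and 36.8 to 44.5 CPM in SY-351, nearly all from MZB1, itself an ER protein, while SDC1, JCHAIN and TNFRSF17 were at most 1.01 CPM.

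The stretch of XBP1 mRNA around the intron that IRE1 removes is shown first, because the splicing result below counts removal of that intron. On GRCh38 the intron of the spliced GENCODE transcript spans chr22:28796122-28796147 on the minus strand. It is 26 bases long, lies inside exon 4 (chr22:28796047-28796192) of the unspliced transcript and is wholly in coding sequence. The intron as annotated in that transcript is in capitals, 5′ to 3′, with its flanks in lower case.

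XBP1 intron, GENCODE v29: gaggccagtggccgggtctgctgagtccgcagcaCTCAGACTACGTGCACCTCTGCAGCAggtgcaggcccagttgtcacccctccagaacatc

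XBP1 joined: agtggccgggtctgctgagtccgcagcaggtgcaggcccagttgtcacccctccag

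Removing 26 bases leaves a remainder of 2 when divided by 3, so the frame shifts: the coding sequence is 783 bases (261 codons) in the unspliced form and 1128 bases (376 codons) in the spliced form, without the stop codon. The letters allow 7 placements of the intron that give the same joined sequence, and GENCODE annotates another of them in a further transcript, at chr22:28796124-28796149. The loop motif CNGCNGN, which IRE1 is known to cut within, matched 4 times in the printed stretch. Among them, CCGCAGC ends 1 base before the capitals and CTGCAGC ends 1 base before their end. The other annotated placement lies 2 bases upstream, and there both motifs span a border. The borders of the capitals lie outside CCGCAGC and CTGCAGC, so they are borders of the annotation and need not mark where IRE1 cuts.

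Promoters of the 10 genes are shown where they hold the ER stress elements that ATF6 and XBP1 bind with the CCAAT-binding factor NF-Y. The RefSeq table of promoter windows (250 bases before to 50 after the gene start, GRCh38.p14) holds all 10. The element ERSE was searched as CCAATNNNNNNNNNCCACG and ERSE-II as ATTGG, 1 free base and CCACG, on both strands, where N is any base. ERSE matched in 27 of 35116 windows (0.0769%) and ERSE-II in 19 (0.0541%). In these genes ERSE matched in XBP1, HSPA5 and CRELD2, and ERSE-II in HERPUD1 and SDF2L1, so 5 of the 10 hold one of the pair. The fixed letters of each element are in capitals, read along the gene's strand, so that CRELD2 and SDF2L1 show the reverse complement.

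XBP1, ERSE: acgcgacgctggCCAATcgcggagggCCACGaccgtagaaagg

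HSPA5, ERSE: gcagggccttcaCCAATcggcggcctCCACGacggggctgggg

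CRELD2, ERSE: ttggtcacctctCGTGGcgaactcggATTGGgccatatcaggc

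HERPUD1, ERSE-II: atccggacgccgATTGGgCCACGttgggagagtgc

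SDF2L1, ERSE-II: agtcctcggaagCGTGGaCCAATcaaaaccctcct

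The matches lie at -52 to -34 from the gene start in XBP1 (chr22:28800603-28800621), at -66 to -48 in HSPA5 (chr9:125241391-125241409) and at -80 to -62 in CRELD2 (chr22:49918554-49918572). The start used for XBP1 is that of the RefSeq window table, 3 bases from the start of the counted transcript. The ERSE-II matches lie at -117 to -107 in HERPUD1 (chr16:56932025-56932035) and at -188 to -178 in SDF2L1 (chr22:21642114-21642124). Those letters are not in the windows of ERN1, ATF6, DNAJB9, SEL1L and EDEM1. The UPR element core TGACGTG is in 0 of the 10 windows and in 1.97% of all windows. A match describes letters only, and binding was not measured. The 10 genes were chosen as genes of these arms, so the number of matches among them is a description and not an independent result.

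With SY-351, 6 of the 10 genes were lower in the fit of all 8 libraries: XBP1, HERPUD1, DNAJB9 and SDF2L1 by over 12-fold, HSPA5 by 3.20-fold and SEL1L by 2.09-fold. By edgeR, DESeq2 and limma-voom 0 of the 10 were higher, and 0 were higher at an unadjusted p below 0.05 with each tool. Levels are relative to each library, and in bulk RNA fewer cells of a type and less RNA per cell cannot be told apart. The test was edgeR's quasi-likelihood test with Benjamini-Hochberg adjustment over 15472 genes, with a call at an adjusted p below 0.05. Of all genes tested, 13.6% were lower and 2.91% higher by the same rule. When DMSO 3 and 4 were the only controls, 7 of these 10 were lower (26.4% of all genes) and 1 was higher (21.9% of all genes). With DMSO 1 and 2 alone, 9 were lower (38.4% of all genes) and 1 was higher (40.8% of all genes). Against DMSO 3 and 4 with scaling by total count in place of TMM, 9 were lower and 0 higher, where 43.3% of all genes were lower and 13.1% higher and the median log2 fold of all genes was -0.45. In 7 of the 10 every SY-351 library lay below every DMSO library, which held for 18.2% of all genes, and 0 of the 10 lay wholly above, against 15.5% of all genes. The median log2 fold (SY-351 over DMSO) of the 10 was -1.42 with all libraries, -1.33 with DMSO 3 and 4 and -2.07 with DMSO 1 and 2. Over all genes those medians were 0.00, 0.01 and 0.19.

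**Figure D1:**
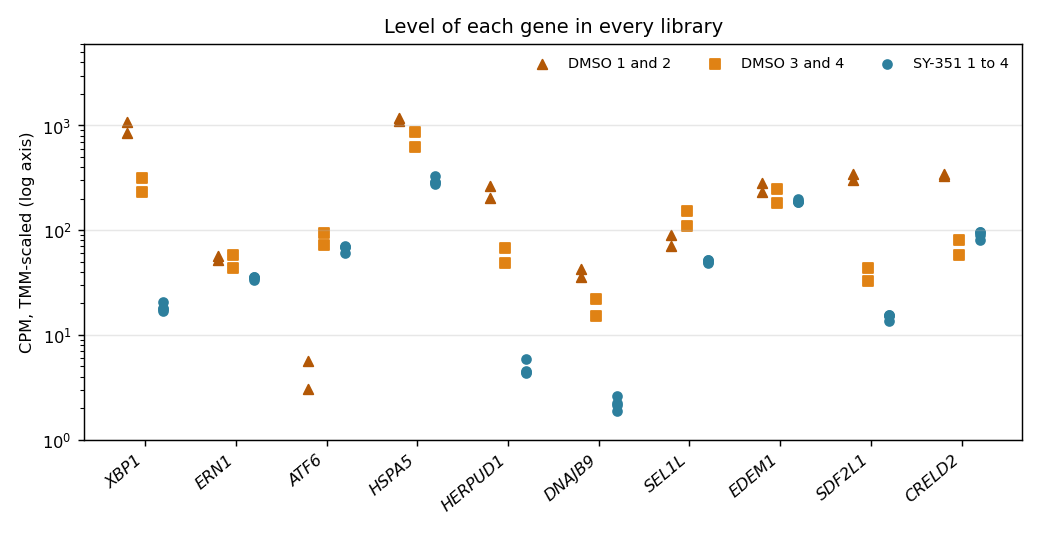
Level of each of the 10 genes in every library, as TMM-scaled CPM on a log axis. Each point is 1 library: triangles are DMSO 1 and 2, squares DMSO 3 and 4, circles the 4 SY-351 libraries. The circles lie below all triangles and squares in 7 of the 10 genes, the exceptions being ATF6, EDEM1 and CRELD2.

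The sensor IRE1 is encoded by ERN1 (NM_001433, chr17:64039142-64130144). ERN1 was at 57.2, 51.6, 43.6 and 58.3 CPM in DMSO 1 to 4 and at 34.6, 35.6, 36.0 and 33.4 CPM in SY-351 1 to 4. All SY-351 values lay below all DMSO values, and the DMSO pairs overlapped each other. The log2 fold was -0.59 ± 0.22 (SE, n = 4 per group; edgeR adjusted p = 0.103) with all libraries, -0.52 ± 0.16 (edgeR adjusted p = 0.00238) with DMSO 3 and 4, and -0.78 ± 0.09 (edgeR adjusted p = 2.83e-05) with DMSO 1 and 2. DESeq2 with all 8 libraries also called ERN1 lower, at a log2 fold of -0.75 (adjusted p = 0.00451).

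ATF6 encodes the membrane-bound sensor and factor of the other arm (NM_007348, chr1:161766320-161964070). Its level was 5.68 and 3.07 CPM in DMSO 1 and 2, but DMSO 3 and 4 were at 72.8 and 94.7 CPM. The SY-351 libraries were at 69.2, 70.6, 68.4 and 60.1 CPM. So SY-351 lay far above the first pair of controls and just below the second. The log2 fold was 0.61 ± 0.95 (edgeR adjusted p = 0.687) with all libraries and 3.79 ± 0.26 (edgeR adjusted p = 2.62e-06) with DMSO 1 and 2. Against DMSO 3 and 4 it was -0.30 ± 0.16 (edgeR adjusted p = 0.113) with TMM and -0.72 ± 0.08 (edgeR adjusted p = 9.15e-06) with total count scaling. No direction for ATF6 holds across the controls. The gene has the longest counted interval of the 10, 197.8 kb from start to end with introns.

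XBP1, the factor that IRE1 activates, had the largest fold of the 10 (NM_005080, chr22:28794560-28800572). Its level was 839 and 1080 CPM in the first pair of controls (DMSO 1 and 2), 230 and 316 CPM in the other, and 16.9, 20.6, 18.2 and 17.6 CPM in SY-351. Every SY-351 library was below every DMSO library, and the lowest control was DMSO 3. XBP1 fell 33.7-fold with all libraries (log2 fold -5.07 ± 0.61, edgeR adjusted p = 0.00334). It fell 14.7-fold against DMSO 3 and 4 (log2 fold -3.88 ± 0.16, edgeR adjusted p = 9.4e-127) and 57.9-fold against DMSO 1 and 2. Total count scaling against DMSO 3 and 4 gave -4.29 ± 0.08 (edgeR adjusted p = 2.76e-10). There a larger fold and a smaller SE came with a larger p-value, so p-values of this size cannot be compared between fits. The counts behind these values were 44610 to 73533 reads in the controls and 781 to 1702 in SY-351.

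**Figure D2:**
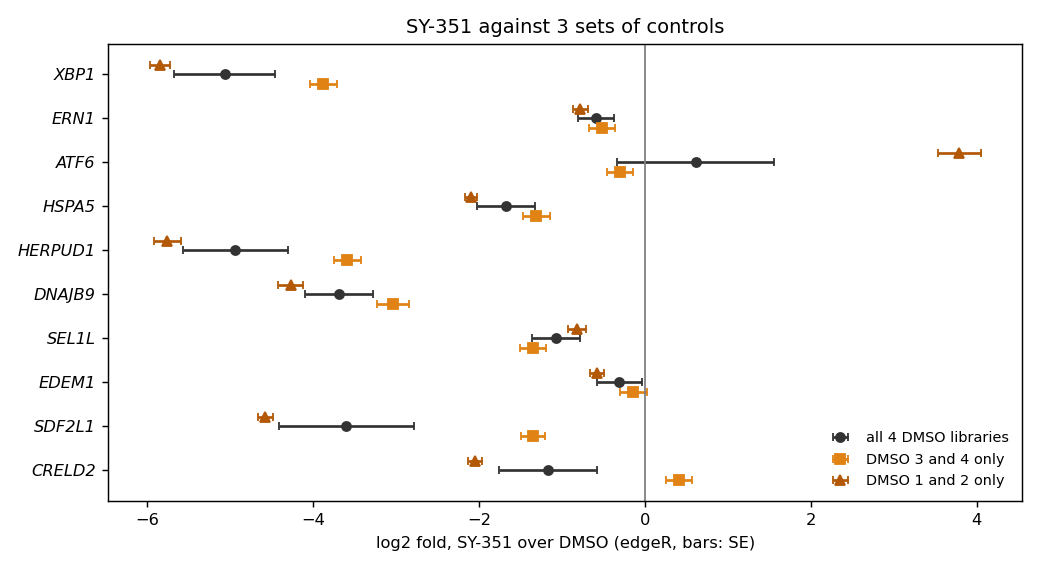
The log2 fold of SY-351 over DMSO for each gene, with SE bars, from edgeR with all 4 DMSO libraries (circles), DMSO 3 and 4 only (squares) or DMSO 1 and 2 only (triangles). XBP1, HERPUD1, DNAJB9, SDF2L1, HSPA5, SEL1L, ERN1 and EDEM1 stay below 0 with each set of controls, while ATF6 and CRELD2 lie on both sides of 0. Of those below 0, ERN1 and EDEM1 did not pass with all 4 DMSO libraries.

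Among the folding genes, HSPA5 encodes BiP, the main Hsp70 chaperone of the ER lumen and the protein that holds the sensors inactive (NM_005347, chr9:125234853-125241343). HSPA5 was at 1115, 1186, 622 and 875 CPM in DMSO 1 to 4 and at 326, 291, 290 and 279 CPM in SY-351 1 to 4. The groups did not overlap, and the SY-351 libraries lay within 279 to 326 CPM. It fell 3.20-fold with all libraries (log2 fold -1.68 ± 0.35, edgeR adjusted p = 0.0164), 2.49-fold against DMSO 3 and 4 (edgeR adjusted p = 5.77e-16) and 4.29-fold against DMSO 1 and 2. Leaving out any 1 SY-351 library took the 8-library call away, with adjusted p up to 0.0853 and log2 folds of -1.69 to -1.64.

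DNAJB9 encodes ERdj4, a J-domain partner of BiP (NM_012328, chr7:108569874-108574850). Its level was 35.7, 42.2, 15.2 and 22.1 CPM in DMSO 1 to 4 and 2.16, 2.23, 2.62 and 1.89 CPM in SY-351 1 to 4. The lowest control thus lay well above the highest SY-351 library, 2.62 CPM. DNAJB9 fell 12.9-fold with all libraries (log2 fold -3.69 ± 0.41, edgeR adjusted p = 0.00291), 8.24-fold against DMSO 3 and 4 and 19.3-fold against DMSO 1 and 2. In SY-351 its counts were 84 to 184 reads.

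SDF2L1 encodes an ER-resident partner of ERdj chaperones (NM_022044, chr22:21642302-21644299). It was at 300 and 343 CPM in DMSO 1 and 2, DMSO 3 and 4 were at 32.8 and 44.0 CPM, and SY-351 was at 15.4, 15.4, 15.0 and 13.6 CPM. The groups did not overlap, but the 2 pairs of controls differed more from each other than DMSO 3 and 4 did from SY-351. SDF2L1 fell 12.1-fold with all libraries (log2 fold -3.60 ± 0.81, edgeR adjusted p = 0.0221), and only 2.54-fold against DMSO 3 and 4 (log2 fold -1.35 ± 0.15, edgeR adjusted p = 1.59e-17). Against DMSO 1 and 2 the fold was 23.8. The 8-library call was lost when DMSO 1 (adjusted p = 0.0506) or any 1 SY-351 library (adjusted p 0.0793 to 0.0832) was left out.

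CRELD2 encodes an ER protein with disulfide isomerase-like activity (NM_024324, chr22:49918634-49927537). It was at 332 and 343 CPM in DMSO 1 and 2, DMSO 3 and 4 were at 58.3 and 80.1 CPM, and SY-351 was at 95.1, 81.0, 89.7 and 95.7 CPM. SY-351 lay below the first pair and just above the second. The log2 fold was -1.17 ± 0.59 (edgeR adjusted p = 0.217) with all libraries, -2.05 ± 0.08 against DMSO 1 and 2, and 0.41 ± 0.16 (edgeR adjusted p = 0.0278) against DMSO 3 and 4. With total count scaling in place of TMM the last value was -0.01 ± 0.06 (edgeR adjusted p = 0.871), so its direction depends on both the controls and the scaling.

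Of the ERAD genes, HERPUD1 encodes a membrane protein of the ERAD ubiquitin ligase complex (NM_014685, chr16:56932142-56944864). HERPUD1 was at 203, 267, 48.6 and 68.3 CPM in DMSO 1 to 4 and at 4.42, 5.91, 4.49 and 4.30 CPM in SY-351 1 to 4. The groups did not overlap, and DMSO 3 was again the lowest control. It fell 30.7-fold with all libraries (log2 fold -4.94 ± 0.63, edgeR adjusted p = 0.00425), by more than 10-fold against DMSO 3 and 4 (log2 fold -3.59 ± 0.16, edgeR adjusted p = 6.74e-111), and 54.1-fold against DMSO 1 and 2.

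SEL1L encodes the adaptor that stabilises the ERAD ligase (NM_005065, chr14:81471547-81533853). Its values were 90.8, 70.3, 109 and 153 CPM in DMSO 1 to 4 and 51.7, 52.4, 48.5 and 49.4 CPM in SY-351 1 to 4. Unlike the other genes that fell, SEL1L was lower in DMSO 1 and 2 than in DMSO 3 and 4. It fell 2.09-fold with all libraries (log2 fold -1.07 ± 0.29, edgeR adjusted p = 0.0415), 2.56-fold against DMSO 3 and 4 (edgeR adjusted p = 3.02e-17) and 1.76-fold against DMSO 1 and 2. The 8-library call is near its threshold. It was lost without DMSO 1 (adjusted p = 0.0693), without DMSO 4 (0.0576), without any 1 SY-351 library (0.129 to 0.147) and with total count scaling (0.165).

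EDEM1 encodes a mannosidase-like protein that hands misfolded glycoproteins to ERAD (NM_014674, chr3:5187707-5219958). It was at 232, 282, 181 and 245 CPM in DMSO 1 to 4 and at 200, 189, 185 and 187 CPM in SY-351 1 to 4. All SY-351 values lay above DMSO 3 and below the other controls. The log2 fold was -0.31 ± 0.27 (edgeR adjusted p = 0.456) with all libraries, -0.14 ± 0.16 (edgeR adjusted p = 0.511) against DMSO 3 and 4 and -0.58 ± 0.08 (edgeR adjusted p = 0.000162) against DMSO 1 and 2. Against DMSO 3 and 4 with total count scaling it was -0.56 ± 0.04 (edgeR adjusted p = 8.58e-07), beside the -0.45 of all genes under that scaling.

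The difference between the pairs of controls, which was seen across all genes, was also present in the 10 genes. The mean of DMSO 1 and 2 was above that of DMSO 3 and 4 in 8 of them. The log2 ratio of mean CPM ran from SDF2L1 (3.06), CRELD2 (2.29), HERPUD1 (2.01) and XBP1 (1.81) to ERN1 (0.09). DMSO 1 and 2 were lower in SEL1L (-0.70) and ATF6 (-4.26). In ERN1 and EDEM1 the pairs overlapped. The share of all genes with a higher mean in DMSO 1 and 2 was not counted, so the 8 of 10 does not set these genes apart. Over the 10 genes this log2 ratio had a Spearman correlation of -0.79 with the length of the counted interval and of 0.70 with the GC content of the transcript. Over all genes at or above a mean of 1 CPM these were -0.29 (12054 genes) and 0.62 (11782 genes). The genes share the same 4 libraries, so these are descriptions. The part of length, GC content or library preparation in the result was not tested.

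**Figure D3:**
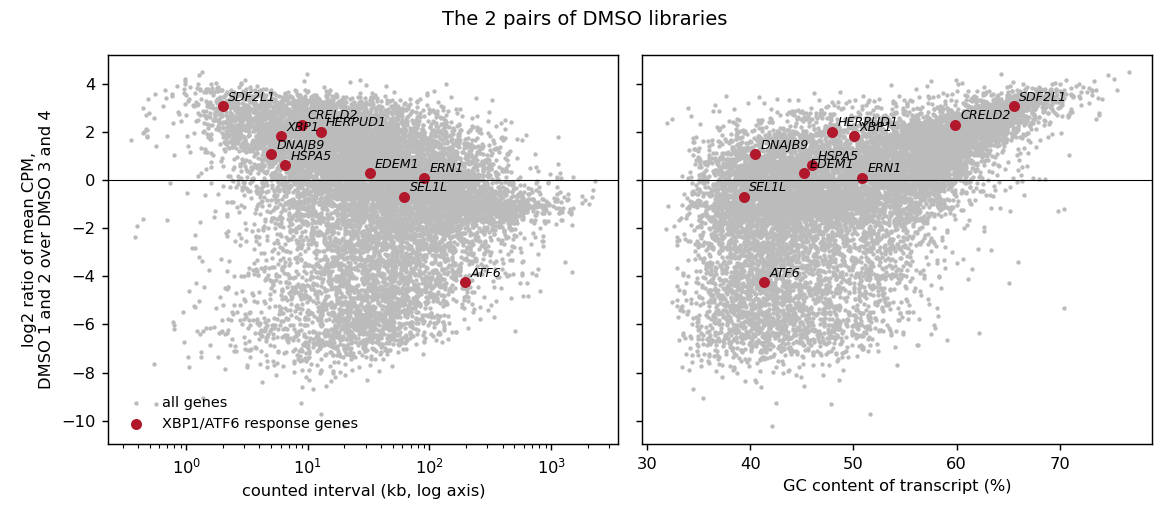
The log2 ratio of mean CPM in DMSO 1 and 2 over DMSO 3 and 4, plotted against the counted interval in kb on a log axis (left) and the GC content of the transcript (right). Grey points are genes and red points are the 10 genes described. SDF2L1, short and GC-rich, lies at 3.06, and ATF6, long, lies at -4.26.

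The authors' deposited table gives the expected inclusion of each local splicing variation in control and SY-351, and the XBP1 intron printed above is in it. A label stored in that table speaks of no outliers, so some libraries may have been left out. Which libraries entered it is not given in the sources used here, so the controls behind its values may be either pair of DMSO libraries or both. The junction that removes the 26-base intron had an expected inclusion of 48.5% in control and 70.8% in SY-351 in the authors' deposited table, an expected difference of 20.9 percentage points. Retention of the intron was at 51.5% in control and 29.0% in SY-351, a difference of -21.5 points, so the spliced form was the larger share in SY-351. None of these entries passed a probability of 0.95. Read from the downstream side, the authors' deposited table gives 44.9% and 70.2% for removal and 54.9% and 29.2% for retention. The authors' deposited probability that the difference is at least 0.20 in inclusion was 0.569 and 0.594 from one side, and 0.679 and 0.693 from the other. Their probability that it is at most 0.05 was 0.0817 to 0.0963. The junction lies 930 bases from the edge of the 129-base exon 3, as the intron printed above does. The junction at the other annotated placement, 928 bases away, was at 0% in control and at most 0.400% in SY-351 in the authors' deposited table. These are proportions within an mRNA whose counted level was 14.7-fold to 57.9-fold lower, not amounts. No per-sample values are given, so no spread can be set beside them.

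HERPUD1 has 1 variation in the authors' deposited table, which leaves exon 1 (344 bases, as in the GENCODE transcript with its first exon at chr16:56932048-56932391). The annotated junction over the 2843-base intron 1 was at 99.6% in control and 72.4% in SY-351, an expected difference of -25.7 points. A junction marked as de novo in the authors' deposited table leads to an exon of 562 bases inside that intron. This junction was at 0.300% in control and 27.3% in SY-351, a difference of 25.1 points. Their probability of a difference of at least 0.20 was 0.833 and 0.808. Their probability of a difference of at most 0.05 was 3.64e-05 and 5.94e-05. Only 2 of the 10 genes have an entry, and 0 of these 2 had a variation past a probability of 0.95 at a difference of 0.20. Of all 3700 genes with an entry 64.2% had such a variation, but 2 genes are too few to compare with that share. In SY-351 the counts behind both genes were low, 191 to 488 reads per library in HERPUD1. The other 8 genes have no entry, and the table lists only variations with a largest expected difference of at least 0.117.

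**Figure D4:**
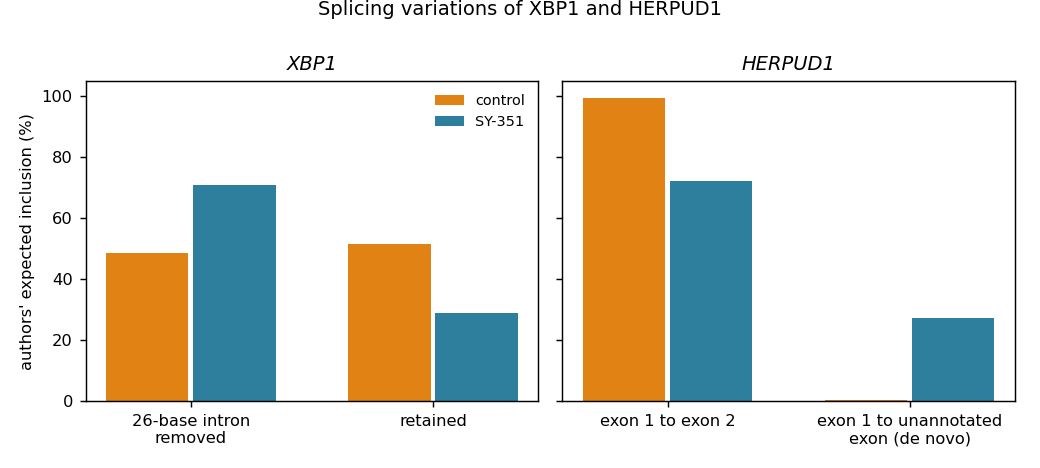
Expected inclusion in percent, from the authors' deposited table, in control (orange) and SY-351 (blue), with no error bars because the table gives none per sample. In XBP1 removal of the 26-base intron stands at 48.5% and 70.8%. In HERPUD1 a junction marked as de novo stands at 0.300% and 27.3%. The axis label calls the exon it joins unannotated, but that exon was not checked against the annotation, and only the junction is marked as de novo.

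Other genes of the pathway were read in 5 lists, each with the share of all genes beside it. In the ERAD machinery 9 of 23 tested were lower (39.1%, against 13.6% of all genes). There 1 was higher (4.35%, against 2.91%), and the median log2 fold was -0.82. SYVN1, the ubiquitin ligase HRD1 that SEL1L and HERPUD1 serve, went from 611, 598, 118 and 169 CPM in DMSO 1 to 4 to 32.6, 34.1, 30.5 and 30.0 CPM in SY-351 1 to 4. It fell 11.8-fold (log2 fold -3.56 ± 0.61, edgeR adjusted p = 0.00898), and 4.45-fold against DMSO 3 and 4. The 1 gene that rose was UBE2G2, a ubiquitin-conjugating enzyme, with a log2 fold of 1.54 ± 0.41 (edgeR adjusted p = 0.0360) and of 1.06 against DMSO 3 and 4. OS9, a lectin of the same ligase complex, was above all controls in every SY-351 library at a log2 fold of 1.65 ± 0.52 (edgeR adjusted p = 0.0631), and VCP, the ATPase that extracts ERAD substrates, had -0.82 ± 0.37 (edgeR adjusted p = 0.169). With DMSO 3 and 4 alone, 14 of the 23 were lower (60.9%, against 26.4% of all genes) and 4 higher (17.4%, against 21.9%).

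Of the ER chaperones and folding enzymes 2 of 25 tested were lower, against 13.6% of all genes. In this list 2 were higher, against 2.91% of all genes, and the median log2 fold was 0.21. Those that fell were MANF (log2 fold -2.80, and -1.73 against DMSO 3 and 4) and TXNDC11 (-3.25 and -2.26). Those that rose were PDIA5 (1.07 and 0.81) and PDIA6 (1.35 and 0.99). These 4 are named because they passed, chosen after their values were seen. HSP90B1, the ER chaperone GRP94, was at 442, 352, 716 and 951 CPM in DMSO 1 to 4 and at 1338, 1237, 1232 and 1265 CPM in SY-351 1 to 4. Every SY-351 library was above every control, with a log2 fold of 1.04 ± 0.42 (edgeR adjusted p = 0.127), and of 0.63 ± 0.17 (edgeR adjusted p = 0.000767) against DMSO 3 and 4. P4HB, a protein disulfide isomerase, had -0.11 ± 0.65 (edgeR adjusted p = 0.920) with all libraries and 1.25 ± 0.18 against DMSO 3 and 4, and the chaperone CALR had 0.21 ± 0.39 (edgeR adjusted p = 0.733). With DMSO 3 and 4 as controls 4 of the 25 were lower and 15 higher, against 26.4% and 21.9% of all genes. With DMSO 1 and 2 as controls 13 were lower and 8 higher, against 38.4% and 40.8% of all genes. Total count scaling with DMSO 3 and 4 gave 8 lower and 10 higher, against 43.3% and 13.1% of all genes. So the split of this list turns on the controls and the scaling.

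The translocon and early secretory list had 2 of 28 lower by edgeR with all libraries (7.14%, against 13.6% of all genes). By the same test 0 of the list were higher (2 at an unadjusted p below 0.05, and 2 by DESeq2), against 2.91% of all genes. The median log2 fold was 0.23. The 2 lower genes, named after their values were seen, were SRPRB (-1.03, and -0.64 against DMSO 3 and 4) and SEC24D (-1.21 and -1.39). SEC61A1, the channel subunit, had a log2 fold of -0.63 ± 0.36 (edgeR adjusted p = 0.267) and the cargo receptor LMAN1 had 0.27 ± 0.29 (edgeR adjusted p = 0.553). SSR4, a subunit of the translocon-associated complex, turned with the controls: -1.19 ± 0.83 (edgeR adjusted p = 0.360) with all libraries, 1.40 ± 0.17 (edgeR adjusted p = 3.71e-15) against DMSO 3 and 4, and -2.21 ± 0.07 against DMSO 1 and 2. Against DMSO 3 and 4, 7 were lower and 11 higher, but 14 were lower and 5 higher with total count scaling.

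**Figure D5:**
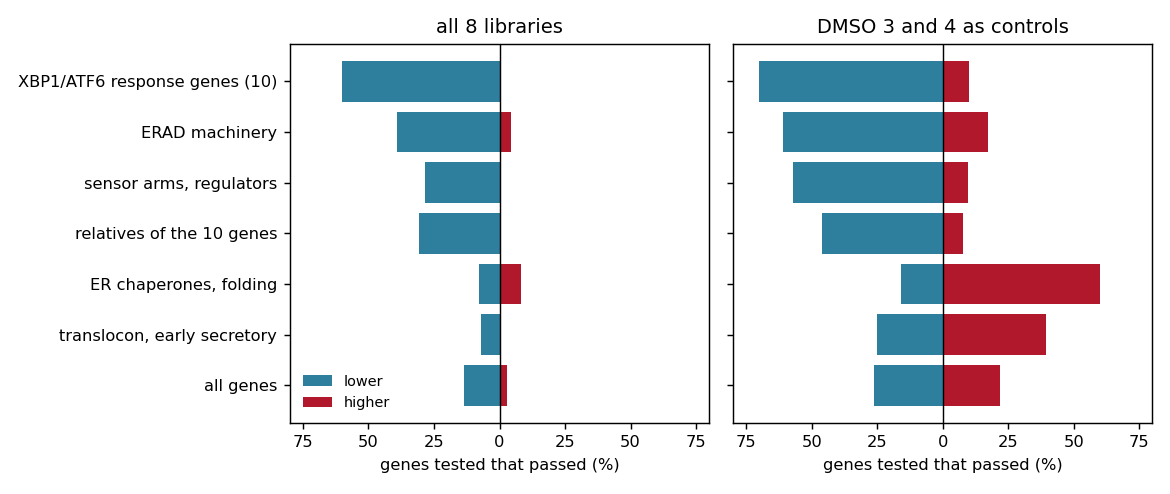
Percent of genes tested in each list that were lower (blue, left) or higher (red, right) in SY-351 by edgeR, with all 8 libraries and with DMSO 3 and 4 as controls. The 10 genes stand at 60.0% and 70.0% lower, ERAD machinery at 39.1% and 60.9%, and all genes at 13.6% and 26.4%.

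In the list of sensor arms and regulators 6 of 21 were lower by edgeR (28.6%, against 13.6% of all genes). In it 0 were higher (0 also at an unadjusted p below 0.05 and by DESeq2), against 2.91% of all genes. Its median log2 fold was -0.90. EIF2AK3, which encodes PERK, the third ER stress sensor, was at 41.5, 53.9, 32.5 and 42.5 CPM in DMSO 1 to 4 and at 9.59 to 10.7 CPM in SY-351. It fell 4.20-fold (log2 fold -2.07 ± 0.26, edgeR adjusted p = 0.00334) and 3.64-fold against DMSO 3 and 4. PERK acts through the factors ATF4 and DDIT3. ATF4 had a log2 fold of -1.46 ± 0.47 (edgeR adjusted p = 0.0696) with all libraries and -0.50 ± 0.16 (edgeR adjusted p = 0.00407) against DMSO 3 and 4. The controls of DDIT3, which encodes CHOP, split like those of ATF6. DMSO 1 and 2 were at 2.47 and 0.705 CPM, and DMSO 3 and 4 at 21.8 and 27.6 CPM. SY-351 lay between the pairs, at 5.68 to 6.46 CPM. The log2 fold of DDIT3 was 1.76 ± 0.44 against DMSO 1 and 2 and -2.03 ± 0.16 against DMSO 3 and 4. MBTPS1, the Golgi protease that cuts ATF6, had 0.45 ± 0.25 (edgeR adjusted p = 0.260). TMBIM6, a membrane protein known to bind and restrain IRE1, was at 9.22 and 5.18 CPM in DMSO 1 and 2, whereas DMSO 3 and 4 were at 407 and 562 CPM, against 901 to 988 CPM in SY-351. ATF6B, the paralog of ATF6, has no row.

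The nearest relatives of the 10 genes had 4 of 13 lower by edgeR (30.8%, against 13.6% of all genes). Of the relatives 0 were higher (1 at an unadjusted p below 0.05, and 1 by DESeq2), against 2.91% of all genes. Their median log2 fold was -0.96. Next to ERN1 (-0.59), its paralog ERN2 fell by 2.38 on the log2 scale (edgeR adjusted p = 0.0164), at 1.46 to 4.92 CPM in DMSO and 0.381 to 0.721 CPM (25 to 59 reads) in SY-351. Against DMSO 3 and 4 ERN2 had -1.42 ± 0.37 (edgeR adjusted p = 0.00038). HERPUD2 fell by 1.98 with all libraries (edgeR adjusted p = 0.0468), but was at -0.59 ± 0.16 (edgeR adjusted p = 0.00047) against DMSO 3 and 4 and -2.82 ± 0.16 against DMSO 1 and 2, beside -3.59 and -5.76 for HERPUD1. EDEM2 fell by 1.22 (edgeR adjusted p = 0.0258) and EDEM3 by 1.01 (edgeR adjusted p = 0.0241), and EDEM1 (-0.31) did not pass. Against DMSO 3 and 4 those values were -0.79, -1.03 and -0.14. These differences between paralogs were not tested. SDF2 (-0.37), CRELD1 (0.14), SEL1L2 (0.98), SEL1L3 (0.98), HSPA9 (0.14), DNAJB11 (-0.96), DNAJB6 (-1.10) and CREB3L2 (-0.78) did not pass with all libraries. HSPA8, the cytosolic relative of BiP, was at 16.2 and 13.4 CPM in DMSO 1 and 2, whereas DMSO 3 and 4 were at 1042 and 1570 CPM, with 123 to 143 CPM in SY-351. HSPA1A and HSPA1B have no row.

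Of the 112 listed pathway genes, 21 have a splicing variation in the authors' deposited table, and 13 of them (61.9%) are past a probability of 0.95, close to the 64.2% of all genes in the table. Among those named here, HERPUD2 had an entry that went from 0.0110 to 0.765 in expected inclusion. In EIF2AK3 the entry with the highest probability went from 0.966 to 0.527, and in SDF2 from 0.621 to 0.108, all past 0.95 in the authors' deposited table. CREB3L2 (0.699 to 0.430) and SSR4 (0.687 to 0.455) were below it, at 0.888 and 0.735.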

How the data were processed

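The deposited expression file gives raw read counts for each RefSeq transcript, made by the authors with featureCounts 1.6.2 at strand setting 1 over 1 interval per transcript, introns included, per the file headers. The submitters' processing notes name GRCh38. The authors' deposited splicing table holds expected inclusion and its difference as a fraction from 0 to 1, and posterior probabilities, per the file headers; its build is not given in the sources used here, and since 12.7% of its variations lay on their own gene in GENCODE on GRCh38, none of its coordinates is printed. Its difference, control minus SY-351, was turned round.

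Of 18093 rows, 17871 matched a symbol through RefSeq and 132 through GENCODE. The tests used edgeR 4.0.16 under R 4.3.3 (robust quasi-likelihood, two-sided, TMM size factors, filterByExpr, no term but group). A check on simulated counts held no difference between the DMSO pairs, so it does not cover that feature of these data. SE is that of the log2 fold. Alternatives were DESeq2 1.42.0, limma-voom 3.58.1, other scalings, no filter, a replicate block, leaving out each library, and, added after the data were seen, each pair of controls alone (DMSO 3 and 4 also with total count scaling). All count columns were used. A count of 3 in a library equals 0.0241 to 0.0693 CPM before TMM scaling, and every value of the 10 genes is above it. The 10 genes and the lists were chosen with earlier results of these data known. The text names all 10, EIF2AK3, ATF4, DDIT3, ATF6B, SYVN1, HSP90B1, the relatives and the 3 genes with the highest mean CPM of each other list. MANF, TXNDC11, PDIA5, PDIA6, SRPRB and SEC24D were added because they passed.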

Additional observations from a re-analysis of the deposited data

Results flagged for a closer look

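HERPUD1 in SY-351 replicate 2 was at 5.91 CPM, apart from the other SY-351 libraries at 4.30 to 4.49 CPM: its gap to the nearest, divided by the group's range, was over Dixon's 95% critical value for 4 samples. It was the 1 such value among 20 groups of 4 libraries looked at (10 genes, 2 groups), and chance gives about 1 in 20. The fold of HERPUD1 without each library in turn ran from -5.19 to -4.48 on the log2 scale and passed the threshold each time.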

How the results depend on the processing

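XBP1, HERPUD1 and DNAJB9 kept their call under every alternative except the replicate block (adjusted p = 0.0699 for each), and HSPA5 lost its call under the block (0.129) and without any 1 SY-351 library. Of the 10 genes, the number lower was 3 to 7 when 1 library was left out, and 3 without any 1 SY-351 library. With the replicate block, which no label supports as a pairing (correlations of deviations -0.176 to 0.00641), 0 of the 10, 0 genes of each list and 0 of all genes passed in either direction in edgeR, though 6 of the 10 were lower and 2288 of all genes lower and 1361 higher at an unadjusted p below 0.05. No other tool was run with the block. The number of the 10 that were higher was 1 with DMSO 3 and 4 and 1 with DMSO 1 and 2. ATF6 (-0.30) and CRELD2 (0.41) changed sign when only DMSO 3 and 4 were controls, and ATF6 (-0.72) also with total count scaling there.

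Over all genes, the number lower was 3806 with DESeq2, 473 to 3438 without 1 library, 4172 with DMSO 3 and 4 and 5996 with DMSO 1 and 2, against 2100. The number higher was 215 with total count scaling, 1377 with DESeq2, 61 to 1885 without 1 library, 3466 with DMSO 3 and 4 and 6372 with DMSO 1 and 2, against 450. The share of calls that were lower was 82.4%, 92.0% with total count scaling, 72.1% with limma-voom, 64.6% without DMSO 3, 54.6% with DMSO 3 and 4 and 48.5% with DMSO 1 and 2. Lower chaperone genes numbered 4 with total count scaling, 4 with DESeq2, 4 with DMSO 3 and 4 and 13 with DMSO 1 and 2. Of all genes, 26.4% and 38.4% were lower with those pairs of controls. Lower ERAD genes numbered 14 and 18 there, translocon genes 7 and 11, and sensor genes 12 and 14. With DESeq2 they numbered 12 for sensors and 7 for relatives, and relatives were 7 with DMSO 1 and 2. With total count scaling and DMSO 3 and 4 as controls, 6848 of all genes were lower and 2065 higher, and 8 chaperone, 18 ERAD, 14 translocon, 17 sensor and 10 related genes were lower. The cause of these moves was not tested. The splicing count of the 10 genes, 2 of which have an entry, stayed at 0 at a probability of 0.90 or 0.99. That of the 21 pathway genes was 16 and 12, against 13. Few reads stand behind ERN2 in SY-351 (25 to 59), DDIT3 in DMSO 2 (48) and DNAJB9 in SY-351 (84 to 184).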
